A study of Mus musculus with 36 samples.

Results

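The 36 genes described here encode the enzymes and regulators that make cholesterol and fatty acids. They were chosen by symbol as members of these pathways, with earlier results of these data known, and all 36 were present among the 11337 genes of the deposited table. Cholesterol is built from acetyl-CoA through mevalonate, squalene and lanosterol, and fatty acids are built from the same acetyl-CoA and then desaturated and elongated. Both branches are driven by the membrane-bound transcription factors encoded by Srebf1, which acts mainly on fatty acid genes, and Srebf2, which acts mainly on sterol genes. SCAP escorts these factors out of the endoplasmic reticulum when sterols are scarce, and the INSIG proteins hold SCAP back when sterols are plentiful. Muscle stem cells, also called satellite cells, lie mostly quiescent on the muscle fibre and need new membrane lipid when they enter the cell cycle.

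Sorted muscle stem cells were profiled by sequencing of polyA RNA, with 1 library per male mouse of the strain labelled C56BL/6 (C57BL6 in the design text). In the wheel cohort, mice of 18 months (old) or 3 months (young) lived for 3 weeks with a running wheel that either turned or was locked, and hindlimb cells were sorted as CD31-, CD45-, Sca1-, VCAM+. It holds 5 old free-wheel, 7 old locked-wheel, 3 young free-wheel and 6 young locked-wheel libraries. In the Ccnd1 cohort, every mouse carried Pax7_CreERT2 and the R26R_YFP reporter and received tamoxifen, and YFP+ cells were sorted 6 weeks later. The 5 young KO mice were Ccnd1 flox/flox, the 4 young HET mice +/flox, and the 3 young WT and 3 old WT mice +/+, at the same ages of 3 and 18 months. Cre is driven from Pax7, so recombination is limited to Pax7-expressing cells, and the WT mice carry the Cre and the tamoxifen too. The comparisons ask how old age, voluntary running and loss of the cyclin gene Ccnd1 bear on these cells.

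Values are RPKM, read counts scaled to exon length and library size, and the number of reads behind each value is unknown. Ccnd1 itself was at 2.07 to 3.40 RPKM in young KO, 6.37 to 8.13 in young HET and 10.6 to 13.3 in young WT libraries, in the order of the labels. The satellite cell gene Pax7 was present in all 36 libraries, at 14.2 to 32.5 RPKM. Centred log2 values spanned 29 of 35 possible directions over the libraries, so 6 directions had been taken out before deposit by a step not given in the sources used here. With old WT merged with old locked-wheel and young WT with young locked-wheel libraries, 24 of 30 residual directions were left. With all 8 groups kept apart 24 of 28 were left, so differences between the cohorts at the same age were among what had been taken out, and the age comparison in WT mice is no independent repeat of that in locked-wheel mice. The share of a comparison's library weights lying in the removed directions was 0% for age in free-wheel mice and for KO against HET. It was 28.4% for age in locked-wheel mice, 61.2% for age in WT mice, 38.3% for KO against WT, 35.05% for HET against WT and 10.2% to 13.9% for the others. Directions within groups were also among those taken out, and the fits did not allow for that. SEs may therefore be too small in any comparison, also where the share was 0%. Of single libraries, young free-wheel 3 was the lowest of its group in 33 of the 36 genes and young HET 2 in 27.

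The promoters of 6 genes are shown: 4 genes that fell with age, Me1, which rose with age, and Mvk. With age Mvk was at -0.28 and -0.01 log2 units in locked-wheel and free-wheel mice, without a call. It was called higher with a free wheel in old mice. Besides Hmgcs1, the falling genes were taken only if their window held a motif marked below. Their matches were thus fixed by the choice, and the sequences do not test whether a motif goes with the fall. Elovl6 and Lpin1 also fell and held neither motif in their windows. Each promoter shown is the 250 bases before the RefSeq transcription start on GRCm38.p6, printed 5′ to 3′ on the gene's strand. Capitals mark matches on either strand to TCACNCCAC, a core of the sterol response element bound by SREBP, and to CCAAT, the box bound by NF-Y, which reads ATTGG on the other strand.
Hmgcs1 (chr13:119690101-119690350, plus strand): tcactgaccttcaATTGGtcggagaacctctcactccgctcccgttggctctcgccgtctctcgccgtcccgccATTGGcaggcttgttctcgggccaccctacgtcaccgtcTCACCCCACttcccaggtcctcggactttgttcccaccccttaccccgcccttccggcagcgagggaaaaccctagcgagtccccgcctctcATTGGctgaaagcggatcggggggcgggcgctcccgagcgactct
Pmvk (chr3:89454291-89454540, plus strand): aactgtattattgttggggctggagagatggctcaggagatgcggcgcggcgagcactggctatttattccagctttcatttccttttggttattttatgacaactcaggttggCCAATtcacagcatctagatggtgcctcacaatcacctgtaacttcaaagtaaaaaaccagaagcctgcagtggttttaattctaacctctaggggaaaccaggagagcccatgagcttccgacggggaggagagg
Msmo1 (chr8:64733579-64733828, minus strand): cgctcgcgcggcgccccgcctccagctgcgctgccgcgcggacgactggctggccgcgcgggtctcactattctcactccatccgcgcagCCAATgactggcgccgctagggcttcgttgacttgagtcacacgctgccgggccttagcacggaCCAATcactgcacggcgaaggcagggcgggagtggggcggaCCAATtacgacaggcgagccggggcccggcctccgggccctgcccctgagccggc
Fasn (chr11:120824548-120824797, minus strand): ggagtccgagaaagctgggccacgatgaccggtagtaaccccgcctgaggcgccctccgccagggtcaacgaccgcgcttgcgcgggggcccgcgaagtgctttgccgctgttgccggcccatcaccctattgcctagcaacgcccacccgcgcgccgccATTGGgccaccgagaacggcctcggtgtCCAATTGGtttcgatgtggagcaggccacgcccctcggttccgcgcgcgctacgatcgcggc
Me1 (chr9:86695915-86696164, minus strand): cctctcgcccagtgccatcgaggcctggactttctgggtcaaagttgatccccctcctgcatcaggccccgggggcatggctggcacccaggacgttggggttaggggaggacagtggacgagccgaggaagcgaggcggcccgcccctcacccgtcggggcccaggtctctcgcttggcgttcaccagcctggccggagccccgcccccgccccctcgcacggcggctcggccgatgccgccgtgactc
Mvk (chr5:114444019-114444268, plus strand): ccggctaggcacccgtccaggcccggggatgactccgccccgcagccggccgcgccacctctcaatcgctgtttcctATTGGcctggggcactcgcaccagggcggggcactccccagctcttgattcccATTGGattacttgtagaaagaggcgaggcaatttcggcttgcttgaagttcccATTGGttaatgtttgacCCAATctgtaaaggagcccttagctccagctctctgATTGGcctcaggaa
Hmgcs1 held the TCACNCCAC match, 137 bases before the start, and 3 CCAAT boxes. Pmvk held 1 CCAAT box, Msmo1 and Fasn 3 each, and Mvk 5, while Me1 held neither motif in this window. A second RefSeq start of Me1, not printed, has 1 CCAAT match in its window. A pair of the Fasn boxes overlap on opposite strands.

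A RefSeq window was matched for 29 of the 36 genes, with 38 windows in all, and was set beside those of 27025 genes. These windows run from 250 bases before to 50 after each start, and only the 250 bases before it were searched. A gene counts when any of its windows holds the motif there. TCACNCCAC was found in 1 of the 29 (3.45%) and in 1.22% of the 27025 genes. CCAAT was found in 22 (75.9%), against 37.5% of the 27025 genes, and GGGCGG, the GC box, in 23 (79.3%), against 35.4%. The E-box CACGTG was found in 6 (20.7%), against 6.86%. The 27025 genes were not limited to the 11337 of the deposited table, so these shares do not set the 29 beside other genes of that table. All motifs were searched on both strands, and a match is only a run of letters.

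Levels of the 36 genes, which RPKM sets per exon length, differed widely. Insig2, encoding the INSIG that is less dependent on SREBP, had the highest mean at 86.6 RPKM over all libraries, followed by Hmgcs1, the synthase that commits acetoacetyl-CoA to the pathway, at 45.0 RPKM and Srebf2 at 42.6 RPKM. Of the pair of SREBP genes Srebf1 was the lower, at 10.6 RPKM. Insig1, itself a target of SREBP, averaged 21.98 RPKM. Msmo1, a sterol methyl oxidase, averaged 27.4 RPKM and Fasn, the fatty acid synthase, 20.2 RPKM. At the low end lay Lss (lanosterol synthase, 1.42 RPKM), Acss2 (acetate activation, 1.28 RPKM), Tm7sf2 (a sterol reductase, 1.16 RPKM) and Dhcr7 (the reductase of 7-dehydrocholesterol, 1.01 RPKM).

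**Figure D1:**
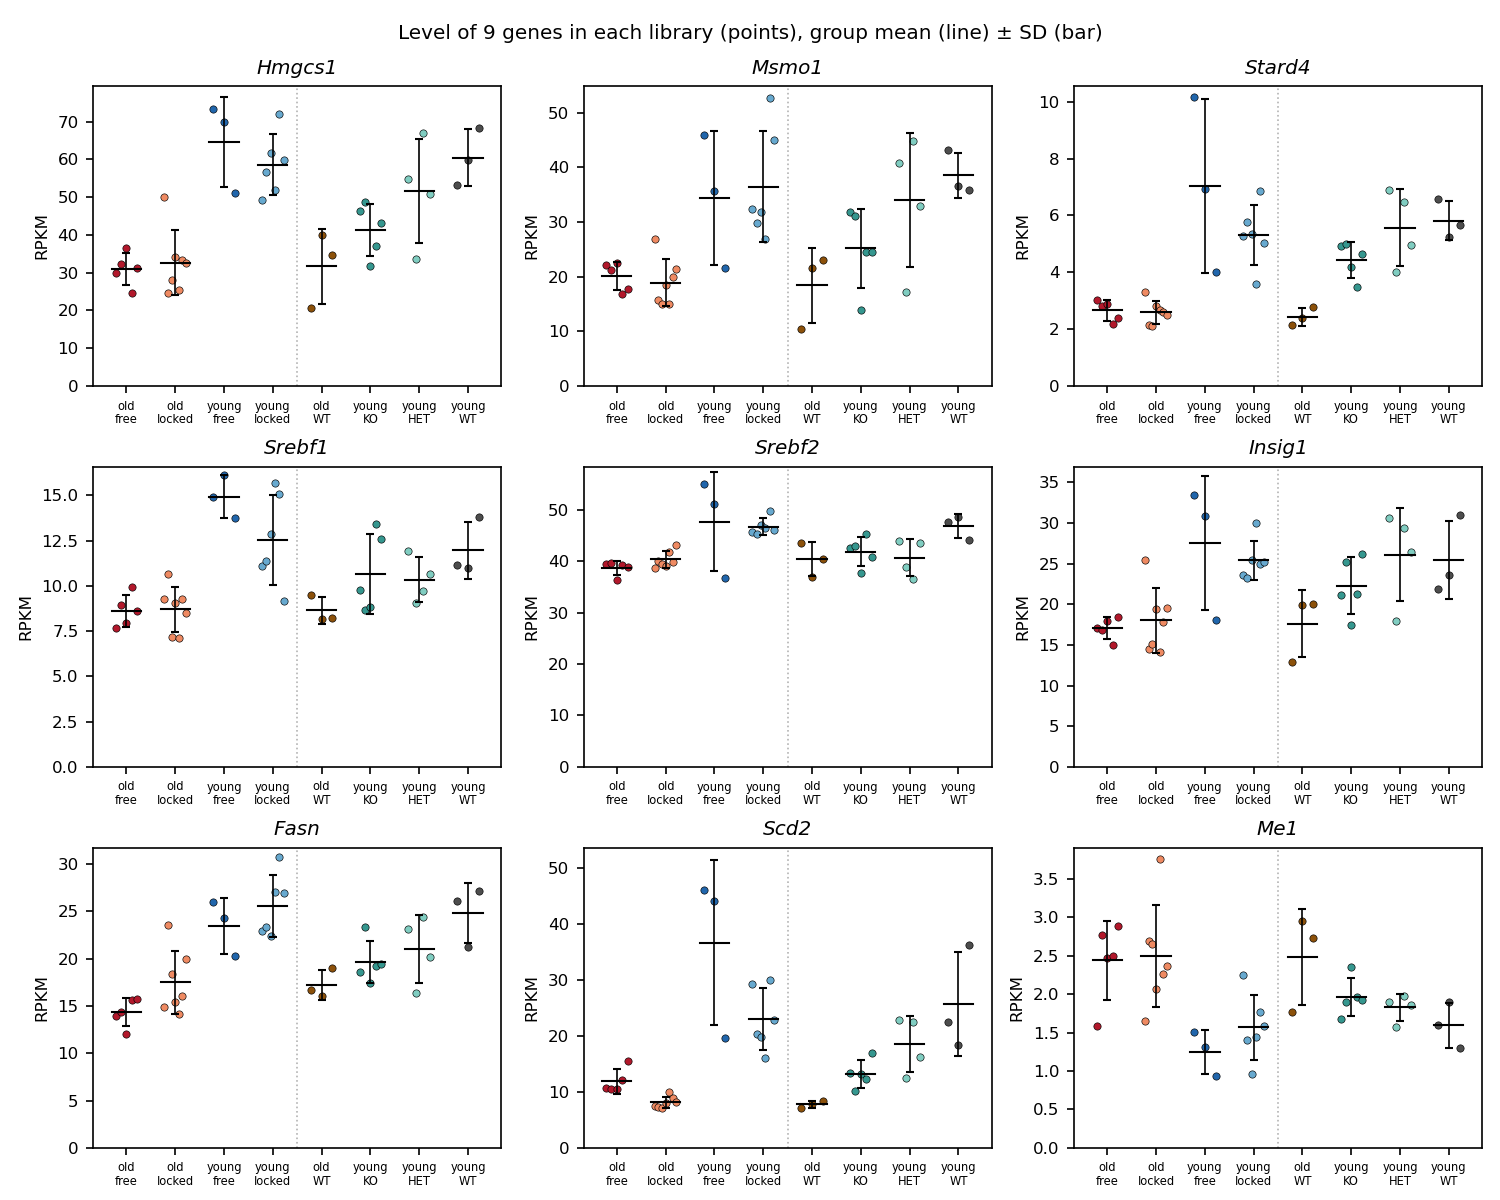
RPKM of 9 genes (y axes, from 0) in each of the 36 libraries (points) by group (x axes, wheel cohort left and Ccnd1 cohort right of the dotted line), with group means (lines) and SD (bars). Scd2 lies at 7.14 to 15.6 RPKM in the old wheel-cohort libraries and at 16.1 to 46.2 RPKM in the young ones, and Me1 runs the other way.

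Old muscle stem cells had less of most of these transcripts than young ones. In locked-wheel mice 24 of the 36 genes fell with age and 1 rose, and in free-wheel mice, which share no library with them, 21 fell and 1 rose. Among all genes 17.8% fell and 20.5% rose in locked-wheel mice, and 17.7% fell and 20.5% rose in free-wheel mice. The median log2 difference, old minus young, was -0.52 over the 36 genes and 0.01 over all genes in locked-wheel mice, and -0.64 and 0.01 in free-wheel mice. A gene was called when limma on log2 RPKM gave a Benjamini-Hochberg adjusted p under 0.05 over all 11337 genes. In sorted bulk cells, fewer cells of a type and less RNA per cell cannot be told apart.

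The fall was shared by 19 genes in both wheel conditions, which are 19 of the 24 in locked-wheel mice and 19 of the 21 in free-wheel mice. How many of all genes fell in both was not counted. Cyp51, Dhcr7, Fads1, Fdft1 and Insig2 were called only in locked-wheel mice and Acly and Scap only in free-wheel mice, and the test of the difference given with the wheel comparisons called none of them. The Cyp51 call was lost in 7 of 13 omissions and with the replicate block, and the Acly call without young free-wheel 2. Old and young ranges were fully apart for 6 of the 36 genes in locked-wheel mice (5.49% of all genes), all lower in old cells. In free-wheel mice 14 were apart and lower, where 19.2% of all genes were. Without young free-wheel 1, 13 of the genes fell in free-wheel mice, and without the low library young free-wheel 3, 25 fell. Over the 8 omissions of 1 library in free-wheel mice 1489 to 1899 of all genes fell.

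In WT mice of the Ccnd1 cohort 14 of the 36 genes fell with age and 1 rose, where 7.76% of all genes fell and 8.03% rose. The median difference was -0.60 over the 36 genes and -0.01 over all genes. Old and young WT ranges were apart, with old lower, for 25 of the 36, against 18.1% of all genes. All 14 had also fallen in locked-wheel mice, an overlap that was not counted over all genes. With 3 libraries per group these calls were fragile: leaving out any 1 of the 6 libraries left 3 to 9 genes lower, and Stard4 and Scd2 alone were called in every omission. Over the same omissions 392 to 667 of all genes fell.

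Markers of several cell types were counted with age beside these genes. Of all genes 17.8% fell and 20.5% rose in locked-wheel mice, 17.7% and 20.5% in free-wheel mice, and 7.76% and 8.03% in WT mice. Some of the marker counts given here and below lie near these shares. Of 7 fibre markers found of 8, none rose, 2 fell in locked-wheel mice, 5 in free-wheel mice and none in WT mice. Their summed level was 42.7 to 171 RPKM in old and 115 to 648 RPKM in young locked-wheel libraries, and 37.5 to 132 RPKM in old and 201 to 380 RPKM in young free-wheel libraries. In WT mice it was 79.8 to 153 RPKM in old and 131 to 294 RPKM in young libraries. Only the free-wheel ranges were apart. With the log of this sum as a covariate, an alternative chosen after the data were seen, 24 of the 36 genes were called lower in old locked-wheel, 22 in old free-wheel and 6 in old WT mice, and Me1 was no longer called in any of the 3.

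Of the 10 satellite cell markers, which mark the sorted cells themselves, 5 fell and 1 rose in locked-wheel mice, 4 fell and 2 rose in free-wheel mice and 3 fell in WT mice. Pax7 was at a mean of 17.2 RPKM in old and 26.4 RPKM in young locked-wheel mice and fell by 0.59, 0.68 and 0.56 log2 units in locked-wheel, free-wheel and WT mice. Their summed level overlapped, at 2384 to 3329 RPKM in old and 2408 to 3060 RPKM in young locked-wheel libraries, 2087 to 2810 RPKM in old and 2580 to 2751 RPKM in young free-wheel libraries, and 2513 to 2964 RPKM in old and 2470 to 2856 RPKM in young WT libraries. Most of that sum is Sdc4, which was not called in any of the 3.

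Of 6 keratinocyte markers found of 8, 3 rose in locked-wheel, 3 in free-wheel and 1 in WT mice, with sums of 13.8 to 20.5 RPKM in old and 6.11 to 9.68 RPKM in young locked-wheel libraries and 10.3 to 16.8 RPKM in old and 5.49 to 6.90 RPKM in young free-wheel libraries. Of 8 endothelial markers 2, 5 and 2 rose in locked-wheel, free-wheel and WT mice, with sums of 161 to 239 RPKM in old and 105 to 131 RPKM in young free-wheel libraries. Their sums overlapped in locked-wheel mice (112 to 169 RPKM old, 96.7 to 147 RPKM young) and in WT mice (138 to 149 RPKM old, 95.2 to 140 RPKM young). Of 8 haematopoietic markers found of 10, 1 fell in free-wheel mice and none was called in locked-wheel or WT mice. Of 8 fibro-adipogenic markers 4, 4 and 2 rose and 2, 1 and 1 fell in the same order, with sums of 382 to 453 RPKM in old and 316 to 574 RPKM in young locked-wheel libraries. Of 6 Schwann cell markers found of 8, 2 rose in locked-wheel and 3 in free-wheel mice. Of 8 adipocyte markers, which would mark cells rich in these enzymes, Fabp4 and Pparg were the 2 in the table. Pparg rose by 0.81, 1.03 and 0.86 log2 units in locked-wheel, free-wheel and WT mice, at a mean of 3.70 RPKM in old and 2.10 RPKM in young locked-wheel mice, and Fabp4 was not called. The table holds no zeros. Apart from the fibre covariate, the part of these markers' cells in the age result was not tested.

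**Figure D2:**
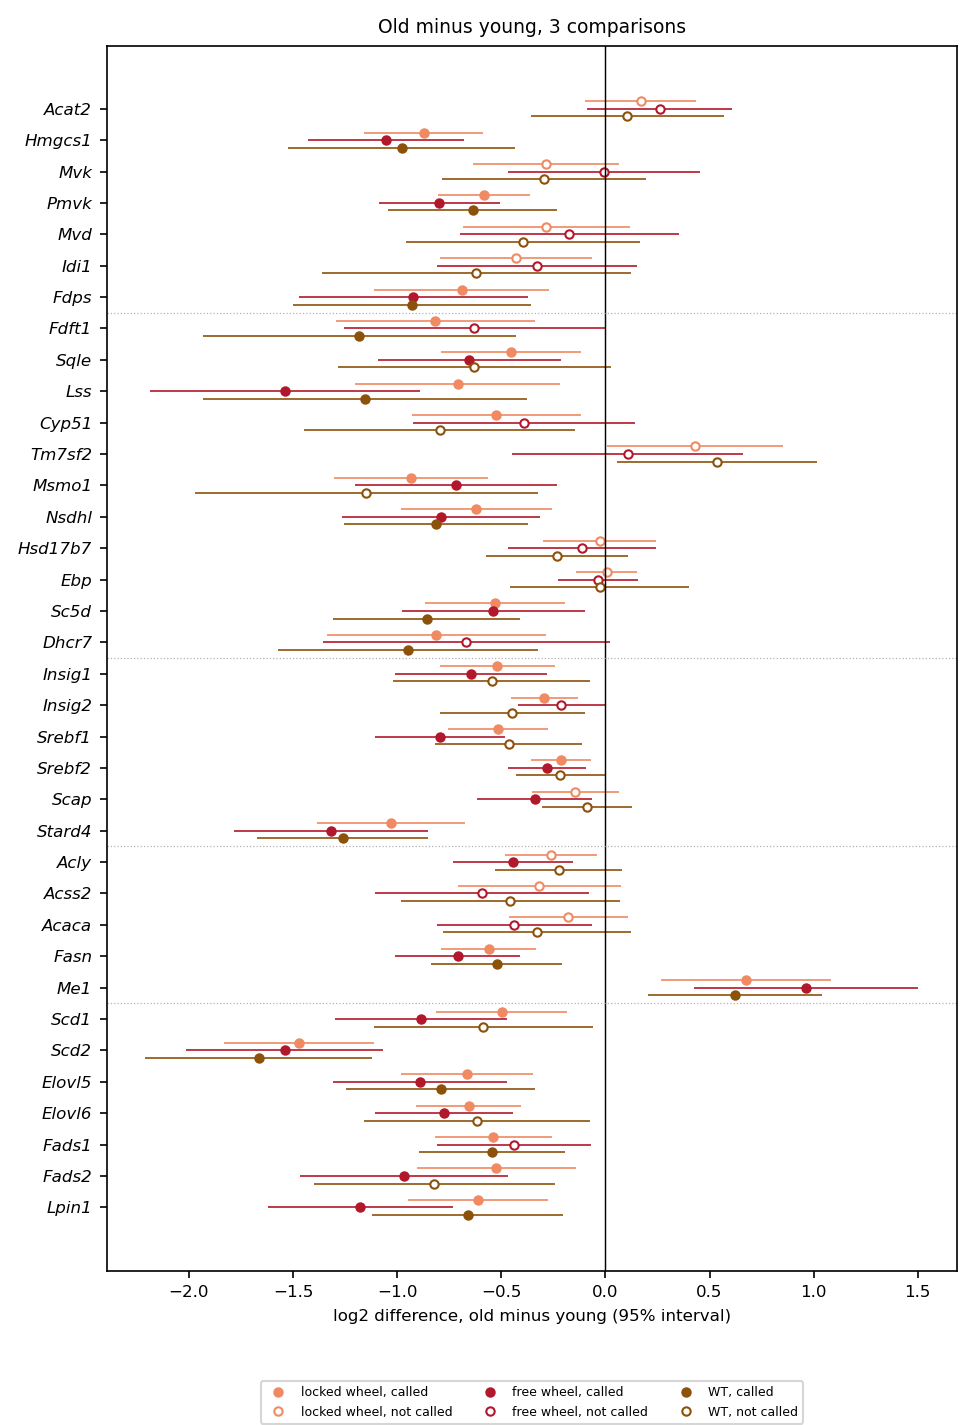
Log2 difference, old minus young (x axis), with its 95% interval for each of the 36 genes (rows, in order of role, dotted lines between roles) in locked-wheel, free-wheel and WT mice. Filled points were called by limma. Scd2, at -1.47, -1.54 and -1.66, lies far to the left in each comparison, and Me1 is the gene called to the right.

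Of the 7 mevalonate pathway genes, 3 fell with age in locked-wheel, free-wheel and WT mice alike: Hmgcs1, Pmvk and Fdps. Hmgcs1 (mm10 chr13:119690379-119708260) ranged from 24.7 to 50.1 RPKM in old locked-wheel libraries, with a median of 32.5, and from 49.3 to 72.1 RPKM in young locked-wheel libraries, with a median of 58.2. Its difference was -0.87 ± 0.14 log2 units (SE, adjusted p = 4.8e-05 by limma). Only the highest old library, old locked-wheel 1, reached into the young range. Under free wheels Hmgcs1 was at 30.0, 32.3, 36.7, 24.7 and 31.4 RPKM in old mice and at 73.3, 69.8 and 51.0 RPKM in young mice. These groups did not overlap, and the difference was -1.05 ± 0.18 (adjusted p = 0.00013). In WT mice it was at 20.6, 39.9 and 34.6 RPKM when old and at 53.3, 59.8 and 68.3 RPKM when young, again apart, a difference of -0.98 ± 0.26 (adjusted p = 0.021).

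Pmvk (chr3:89454541-89469013) encodes phosphomevalonate kinase, the second of the kinase steps after mevalonate. Old locked-wheel libraries had 6.24 to 9.03 RPKM with a median of 8.31, and young locked-wheel libraries 9.70 to 14.7 RPKM with a median of 12.2. The ranges were apart, with a difference of -0.58 ± 0.11 (adjusted p = 0.00023). Old free-wheel libraries had 6.86, 7.57, 6.98, 7.39 and 7.50 RPKM, all below the 16.3, 11.5 and 10.7 RPKM of young free-wheel libraries (-0.80 ± 0.14, adjusted p = 0.00017). In WT mice the difference was -0.64 ± 0.19 (adjusted p = 0.036). Fdps, which makes farnesyl diphosphate, fell by 0.69, 0.92 and 0.93 log2 units in locked-wheel, free-wheel and WT mice. Its free-wheel call was lost without young free-wheel 1 or 2, and its WT call in all 6 omissions. The pathway did not move as a block: Acat2, the thiolase at its start, had differences of 0.17, 0.26 and 0.11 in the same order, and neither it nor Mvk, Mvd or Idi1 was called in any of the 3.

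Of the 11 squalene and sterol genes, 8 fell with age in locked-wheel mice, 5 in free-wheel mice and 5 in WT mice. Msmo1 (chr8:64718139-64733792) was at 14.9 to 26.9 RPKM in old and 26.9 to 52.8 RPKM in young locked-wheel libraries, with medians of 18.5 and 32.1, ranges that overlapped in their ends only. It fell by 0.93 log2 units there (SE 0.18, adjusted p = 0.00035) and by 0.72 in free-wheel mice (SE 0.23, adjusted p = 0.019), and was at -1.15 in WT mice without a call (adjusted p = 0.057). The free-wheel call was lost without young free-wheel 1 or 2, with values between -1.02 and -0.47 over the omissions, and with all 36 libraries in 1 fit. Lss closes squalene epoxide into lanosterol. In free-wheel mice it was at 1.08, 0.721, 0.757, 0.878 and 0.885 RPKM when old and 3.46, 2.81 and 1.58 RPKM when young. These did not overlap, and Lss fell by 1.54 (SE 0.31, adjusted p = 0.00061), against 0.71 in locked-wheel mice, a call that was lost without young locked-wheel 5.

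Nsdhl and Sc5d, which act on the sterol nucleus after lanosterol, fell in all 3 age comparisons. Nsdhl (chrX:72918557-72958514) was at 4.07, 5.13 and 4.86 RPKM in old WT and at 8.52, 7.28 and 8.87 RPKM in young WT libraries (-0.81 ± 0.21, adjusted p = 0.018). Sc5d (chr9:42251595-42264256) was at 6.25, 7.58 and 7.92 RPKM in old WT and at 14.1, 11.8 and 13.4 RPKM in young WT libraries (-0.86 ± 0.21, adjusted p = 0.015). Both sets of WT values were apart. In the wheel cohort their ranges overlapped: Nsdhl fell by 0.62 and 0.79 and Sc5d by 0.53 and 0.54 in locked-wheel and free-wheel mice. In free-wheel mice the Nsdhl call was lost without young free-wheel 1 or 2, and the Sc5d call in 6 of 8 omissions. Ebp and Hsd17b7 were not called, with differences between -0.03 and 0.01 for Ebp and between -0.23 and -0.03 for Hsd17b7 over the 3 comparisons. Tm7sf2 ran the other way, at 0.43, 0.11 and 0.53, without a call.

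Among the 6 regulators and transport genes, 5 fell with age in locked-wheel mice, 5 in free-wheel mice and 1, Stard4, in WT mice. Stard4 (chr18:33199355-33213862) encodes a protein that carries cholesterol between membranes and is a known target of SREBP. It ranged from 2.10 to 3.30 RPKM in old and from 3.59 to 6.86 RPKM in young locked-wheel libraries, with medians of 2.59 and 5.31. The ranges were apart, and the difference was -1.03 ± 0.17 (adjusted p = 8.2e-05). Free-wheel libraries had 3.03, 2.80, 2.87, 2.19 and 2.38 RPKM when old and 10.1, 6.93 and 4.02 RPKM when young (-1.32 ± 0.22, adjusted p = 0.00012). WT libraries had 2.13, 2.39 and 2.78 RPKM when old and 6.56, 5.24 and 5.65 RPKM when young (-1.26 ± 0.19, adjusted p = 0.0014). No old library of these groups reached any young library of its own comparison.

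Srebf1 and Srebf2 both fell with age in the wheel cohort, Srebf2 by the smaller amount. Srebf1 (chr11:60199089-60222581) was at 7.10 to 10.6 RPKM in old and 9.18 to 15.7 RPKM in young locked-wheel libraries, with medians of 9.06 and 12.1 (-0.52 ± 0.12, adjusted p = 0.0013). In free-wheel mice it was at 7.67, 8.96, 7.95, 9.93 and 8.59 RPKM when old, all below the 14.9, 16.1 and 13.7 RPKM of young mice (-0.79 ± 0.15, adjusted p = 0.00034). Srebf2 (chr15:82147181-82205379) differed little in size but steadily: 38.7 to 43.2 RPKM in old locked-wheel libraries, median 39.8, against 45.3 to 49.7 RPKM in young ones, median 46.3. The ranges were apart, and the difference was -0.21 ± 0.07 (adjusted p = 0.018). In free-wheel mice Srebf2 was at 39.4, 39.7, 36.3, 39.2 and 38.9 RPKM when old and at 55.0, 51.1 and 36.7 RPKM when young, where young free-wheel 3 lay among the old values (-0.28 ± 0.09, adjusted p = 0.018). That call was lost without young free-wheel 1 or 2. WT mice had 9.51, 8.20 and 8.22 RPKM of Srebf1 when old and 11.1, 10.996 and 13.8 RPKM when young, and 43.6, 37.0 and 40.5 RPKM of Srebf2 when old and 47.7, 48.6 and 44.1 RPKM when young. Neither passed there, at -0.47 (adjusted p = 0.07) and -0.22 (adjusted p = 0.15).

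Insig1 (chr5:28071363-28078662), whose product holds SCAP in the endoplasmic reticulum, fell alongside the enzymes. It was at 14.2 to 25.4 RPKM in old and 23.2 to 30.0 RPKM in young locked-wheel libraries, with medians of 17.9 and 25.1 (-0.52 ± 0.13, adjusted p = 0.0042). In free-wheel mice it was at 17.1, 16.8, 17.9, 14.9 and 18.4 RPKM when old and at 33.5, 30.9 and 18.1 RPKM when young (-0.64 ± 0.18, adjusted p = 0.0064), and without young free-wheel 1 that call was lost. Insig2 (chr1:121304353-121332589) was at 64.1 to 92.3 RPKM in old and 91.5 to 105 RPKM in young locked-wheel libraries, with medians of 77.5 and 92.6, a fall of smaller size (-0.29 ± 0.08, adjusted p = 0.0047). Free-wheel mice had 68.3, 75.1, 93.4, 81.8 and 75.5 RPKM of Insig2 when old and 91.9, 90.3 and 90.2 RPKM when young, and 1 old library lay above the young ones (-0.21, adjusted p = 0.1). In WT mice Insig1 was at 12.8, 20.0 and 20.0 RPKM when old and 21.9, 23.6 and 30.9 RPKM when young, and Insig2 at 92.6, 67.3 and 65.3 RPKM when old and 105, 116 and 84.3 RPKM when young. Neither was called there, at -0.55 (adjusted p = 0.11) and -0.45 (adjusted p = 0.075). Scap lay at -0.14, -0.34 and -0.09 in locked-wheel, free-wheel and WT mice and was called in free-wheel mice only (adjusted p = 0.049), a call lost in 7 of 8 omissions.

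Of the 5 genes that supply or build fatty acids, Fasn fell with age and Me1 rose in all 3 comparisons. Fasn (chr11:120805846-120824547) was at 14.2 to 23.6 RPKM in old and 22.4 to 30.8 RPKM in young locked-wheel libraries, with medians of 16.1 and 25.2 (-0.56 ± 0.11, adjusted p = 0.00041). Free-wheel mice had 13.9, 14.4, 12.1, 15.6 and 15.7 RPKM when old and 26.0, 24.3 and 20.2 RPKM when young, fully apart (-0.71 ± 0.14, adjusted p = 0.00061). Me1 (chr9:86581371-86695953) encodes the cytosolic malic enzyme, a source of NADPH for lipid synthesis. It was at 1.65 to 3.76 RPKM in old and 0.963 to 2.25 RPKM in young locked-wheel libraries, with medians of 2.37 and 1.51 (0.67 ± 0.20, adjusted p = 0.01). In free-wheel mice it was at 1.58, 2.77, 2.47, 2.50 and 2.88 RPKM when old, all above the 1.501, 1.31 and 0.936 RPKM of young mice (0.96 ± 0.26, adjusted p = 0.0058). WT mice had 1.77, 2.94 and 2.73 RPKM when old and 1.59, 1.89 and 1.30 RPKM when young, overlapping in 1 library (0.62 ± 0.20, adjusted p = 0.043). Acly, which cleaves citrate to acetyl-CoA, was called lower in free-wheel mice (-0.44, adjusted p = 0.016), and Acss2 and Acaca, the first committed enzyme, were called in none of the 3.

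All 7 genes of desaturation, elongation and glycerolipid synthesis fell with age in locked-wheel mice, 6 in free-wheel mice and 4 in WT mice. Scd2 (chr19:44293674-44306864), a stearoyl-CoA desaturase, changed most. Old locked-wheel libraries had 7.14 to 9.997 RPKM, median 7.995, and young locked-wheel libraries 16.1 to 29.9 RPKM, median 21.6. No old library came near the young range, and the difference was -1.47 ± 0.17, or 2.77-fold lower (adjusted p = 1.8e-06). Free-wheel mice had 10.7, 10.5, 10.6, 12.1 and 15.6 RPKM when old and 46.2, 44.1 and 19.6 RPKM when young (-1.54 ± 0.23, adjusted p = 3.1e-05). WT mice had 7.14, 7.83 and 8.44 RPKM when old and 22.6, 18.3 and 36.2 RPKM when young (-1.66 ± 0.25, adjusted p = 0.0015). Groups were apart in each case.

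Scd1, its neighbour and paralogue on chromosome 19, fell by 0.50 in locked-wheel mice and 0.89 in free-wheel mice, and how the counting divided reads that match both genes is unknown. The elongase Elovl6 fell by 0.66 and 0.77 and the elongase Elovl5 by 0.67 and 0.89 in locked-wheel and free-wheel mice. The desaturase Fads2 fell by 0.52 and 0.97, although the first of these calls was lost in 6 of 13 omissions. Fads1 was called in locked-wheel mice (-0.54) and WT mice (-0.55) but not in free-wheel mice (-0.44, adjusted p = 0.057). Lpin1, a phosphatidate phosphatase, was at 1.41, 1.25, 1.19, 1.30 and 1.77 RPKM in old and 3.73, 2.70 and 2.94 RPKM in young free-wheel libraries, fully apart (-1.18 ± 0.21, adjusted p = 0.00022). Its locked-wheel difference was -0.61.

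**Figure D3:**
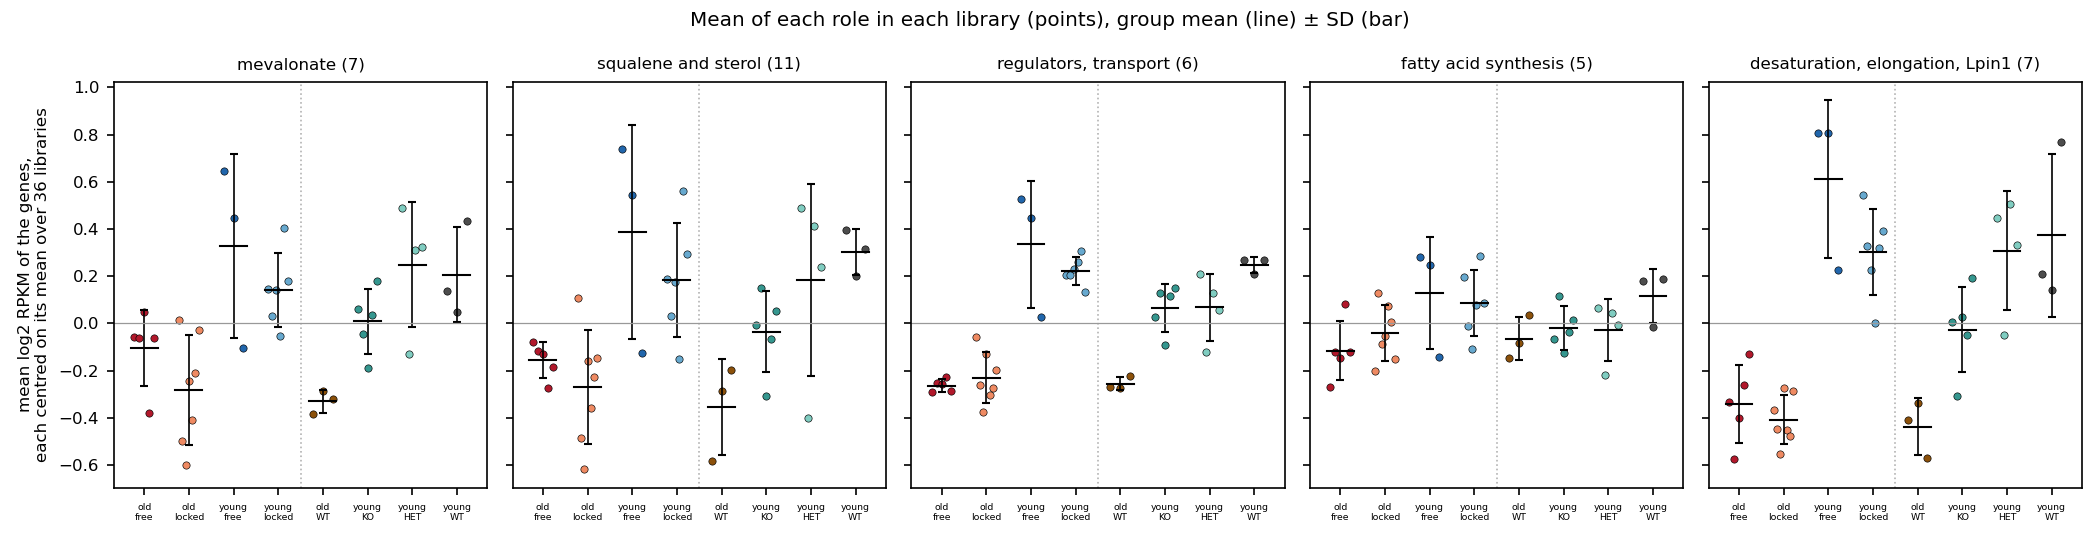
Mean log2 RPKM over the genes of each role, each gene centred on its mean over the 36 libraries (y axis), for each library (points) by group (x axis), with group means (lines) and SD (bars). Numbers in brackets count genes. The old groups lie below 0 on average in every role, and for desaturation and elongation the old group means are -0.34, -0.41 and -0.44 in free-wheel, locked-wheel and WT mice.

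The wheel moved few of these genes at either age. In old mice 1 of the 36, Mvk, was higher with a free wheel, against 7.39% of all genes called in either direction, and the median difference, free minus locked, was -0.01 both for the 36 and for all genes. Mvk (chr5:114444269-114460591) encodes mevalonate kinase. It was at 3.62, 2.96, 3.24, 2.19 and 3.46 RPKM in old free-wheel libraries and 1.40 to 3.04 RPKM in old locked-wheel libraries, with a median of 1.93. These ranges overlapped, and the difference was 0.69 ± 0.18 (adjusted p = 0.025 by limma). The call was lost without old free-wheel 1, 3 or 5, and when only the groups compared were fitted. Of 8 endothelial markers 2 were also higher with a free wheel, with sums of 161 to 239 RPKM in old free-wheel and 112 to 169 RPKM in old locked-wheel libraries, and their part was not tested. Mvd, the decarboxylase 2 steps on, was at 5.43, 4.57, 6.46, 3.38 and 4.35 RPKM in old free-wheel libraries and 1.76 to 4.42 RPKM, median 3.20, in old locked-wheel libraries, and missed the threshold (0.66 ± 0.20, adjusted p = 0.051). Scd2, with old free-wheel libraries all above old locked-wheel ones as given above, also missed it (0.53 ± 0.18, adjusted p = 0.076).

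In young mice limma called none of the 36 genes for the wheel, against 1.12% of all genes. An unadjusted p under 0.05 was found for 6 of the 36 and for 1796 of all 11337 genes. The median difference was 0.13 over the 36 genes and near 0 over all genes, with 28 of the 36 positive. Scd2 had the lowest p, with the young free-wheel and young locked-wheel values given above (0.60 ± 0.22, adjusted p = 0.18), followed by Scd1. Scd1 was at 32.2, 38.4 and 19.1 RPKM in young free-wheel libraries and 14.9 to 28.2 RPKM, median 18.3, in young locked-wheel libraries (0.53 ± 0.19, adjusted p = 0.18). The groups overlapped through young free-wheel 3, without which 3 of the 36 genes were called higher. Over the 9 omissions of 1 library in this comparison 5 to 205 of all genes were called in either direction. Whether the wheel acted differently in old and young mice was tested as a difference of differences. It was called for none of the 36 genes, against 0.00882% of all genes. An unadjusted p under 0.05 by limma was found for 960 of all 11337 genes and for 2 of the 36. These were Lss (-0.83 ± 0.39, adjusted p = 0.58) and Lpin1 (-0.56 ± 0.27, adjusted p = 0.58), both with the smaller free minus locked difference in old mice. The same test compares the age differences between free-wheel and locked-wheel mice.

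**Figure D4:**
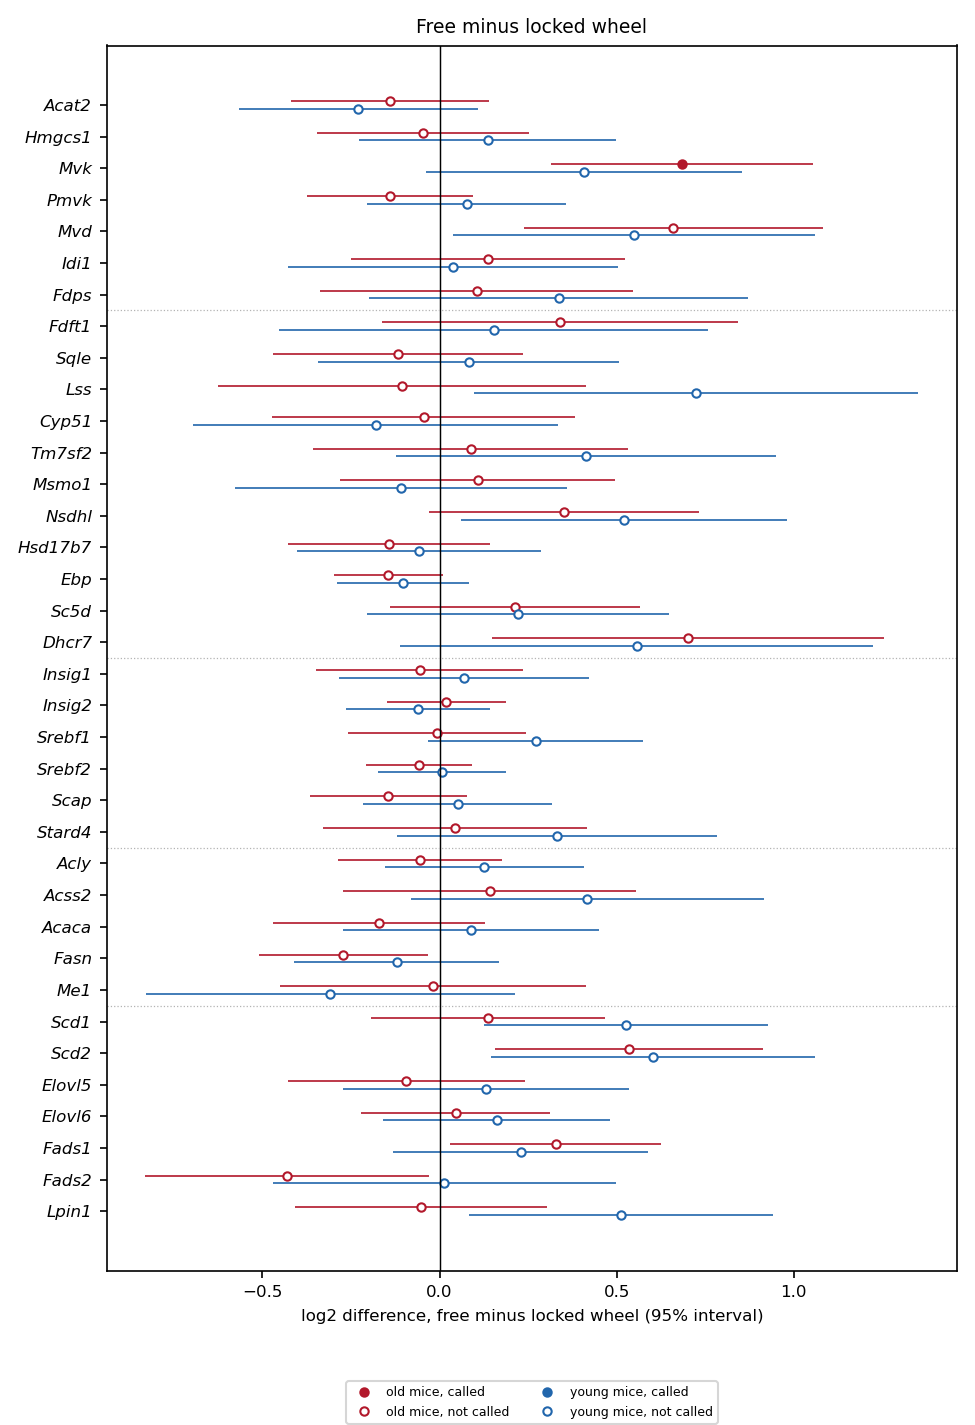
Log2 difference, free minus locked wheel (x axis), with its 95% interval for each of the 36 genes (rows by role) in old and young mice. Mvk in old mice, at 0.69, is the 1 filled point, and most young points lie right of 0 with intervals that reach it.

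Old mice with a free wheel were also set against young mice with a locked wheel, which share their libraries with the comparisons above. Of the 36 genes 20 were lower and 1, Me1, higher in old free-wheel mice, against 19.2% lower and 21.8% higher of all genes. Ranges were apart, with old free-wheel lower, for 11 of the 36, against 9.64% of all genes, and the median difference was -0.35, against 0.02 over all genes. The 4 lowest p values among the genes that were lower belonged to Fasn (-0.83 ± 0.12, adjusted p = 1.7e-05), Pmvk (-0.72 ± 0.12, adjusted p = 5.5e-05), Hmgcs1 (-0.92 ± 0.15, adjusted p = 6.4e-05) and Stard4 (-0.99 ± 0.19, adjusted p = 0.00027). The old free-wheel and young locked-wheel values given above did not overlap for any of these 4. Me1 lay at 0.66 ± 0.22 (adjusted p = 0.018), and Mvk and Mvd, the genes with the lowest p in the wheel comparison of old mice, at 0.40 and 0.38 without a call. By role, 3 mevalonate, 4 sterol, 6 regulator, 2 fatty acid and 5 desaturation and elongation genes were lower. Of the 21 calls 16 held in every omission and 14 in every other setting, and that of Me1 was lost without young locked-wheel 3 and with the fibre covariate. In this comparison 6 of 7 fibre markers were lower and 5 of 8 endothelial markers higher in old free-wheel mice, with fibre sums of 37.5 to 132 RPKM in old free-wheel and 115 to 648 RPKM in young locked-wheel libraries.

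With loss of Ccnd1 in young mice most of the 36 genes lay lower than in WT mice, but by amounts that limma did not call. In KO against WT mice limma called 1 of the 36, Scd2, lower, against 6.99% of all genes called in either direction. An unadjusted p under 0.05 was found for 8 of the 36 and for 2910 of all 11337 genes. Scd2 was at 13.4, 10.2, 13.2, 12.4 and 17.0 RPKM in KO libraries, all below the 22.6, 18.3 and 36.2 RPKM of WT libraries (-0.92 ± 0.23, adjusted p = 0.032). The call was lost without young KO 1 or 3 or young WT 1 or 3. The differences of 33 of the 36 genes were negative, with a median of -0.26, against 0.02 over all genes, and 7 were apart and lower in KO, against 6.61% of all genes. Hmgcs1 was among those apart, at 46.4, 48.6, 31.7, 37.0 and 43.1 RPKM in KO and at the WT values given above, but missed the threshold (-0.56 ± 0.23, adjusted p = 0.14). KO libraries had 9.77, 8.65, 8.84, 13.4 and 12.6 RPKM of Srebf1 and 42.6, 42.9, 37.6, 45.2 and 40.8 RPKM of Srebf2, both overlapping WT. They had 21.1, 25.3, 17.5, 21.2 and 26.2 RPKM of Insig1 and 84.1, 110, 92.6, 111 and 92.2 RPKM of Insig2, overlapping WT as well. The differences of these 4 lay between -0.19 and -0.05. Fibre markers summed to 99.2 to 144 RPKM in KO libraries, against 131 to 294 RPKM in WT libraries, and their part in this comparison was not tested.

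In HET against WT mice limma called none of the 36 genes, against 5.39% of all genes. An unadjusted p under 0.05 was found for 7 of the 36 and for 2615 of all 11337 genes. The lowest p belonged to Mvd, at 7.04, 5.49, 6.24 and 6.72 RPKM in HET and 3.39, 2.99 and 5.52 RPKM in WT libraries (0.73 ± 0.25, adjusted p = 0.094). Tm7sf2 followed, at 1.37, 1.67, 0.944 and 1.16 RPKM in HET libraries, all above the 0.922, 0.742 and 0.856 RPKM of WT libraries (0.59 ± 0.21, adjusted p = 0.11). HET libraries had 54.9, 33.7, 66.97 and 51.0 RPKM of Hmgcs1, 11.9, 9.06, 9.73 and 10.7 RPKM of Srebf1 and 43.9, 38.8, 36.5 and 43.6 RPKM of Srebf2. They had 30.7, 18.0, 29.4 and 26.4 RPKM of Insig1 and 83.2, 84.4, 84.0 and 66.0 RPKM of Insig2. Of these 5 genes Srebf2 alone had HET values wholly below WT ones, by little (-0.21 ± 0.09, adjusted p = 0.2). Keratinocyte markers summed to 74.0 to 190 RPKM in HET libraries, against 6.65 to 8.21 RPKM in WT libraries, and their part was not tested.

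KO against HET was the comparison of the Ccnd1 cohort with no library weight in the removed directions. It again gave no call among the 36, against 6.04% of all genes. An unadjusted p under 0.05 by limma was found for 6 of the 36 and for 2571 of all 11337 genes. Elovl6 was at 4.11, 2.92, 4.25, 5.44 and 6.16 RPKM in KO and 6.98, 4.57, 8.63 and 7.78 RPKM in HET libraries (-0.62 ± 0.21, adjusted p = 0.091). Elovl5 was at 22.1, 17.5, 22.6, 20.6 and 27.9 RPKM in KO and 35.8, 26.0, 29.6 and 28.7 RPKM in HET libraries (-0.44 ± 0.18, adjusted p = 0.15). Both elongases overlapped between the groups through 1 HET library, young HET 2. Without that library 6 of the 36 genes were called lower in KO. Over the 9 omissions of 1 library in this comparison 45 to 112 of all genes were called lower. All 6 keratinocyte markers found were also called lower in KO. They summed to 5.22 to 9.06 RPKM in KO and 74.0 to 190 RPKM in HET libraries, and their part in this comparison was not tested.

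**Figure D5:**
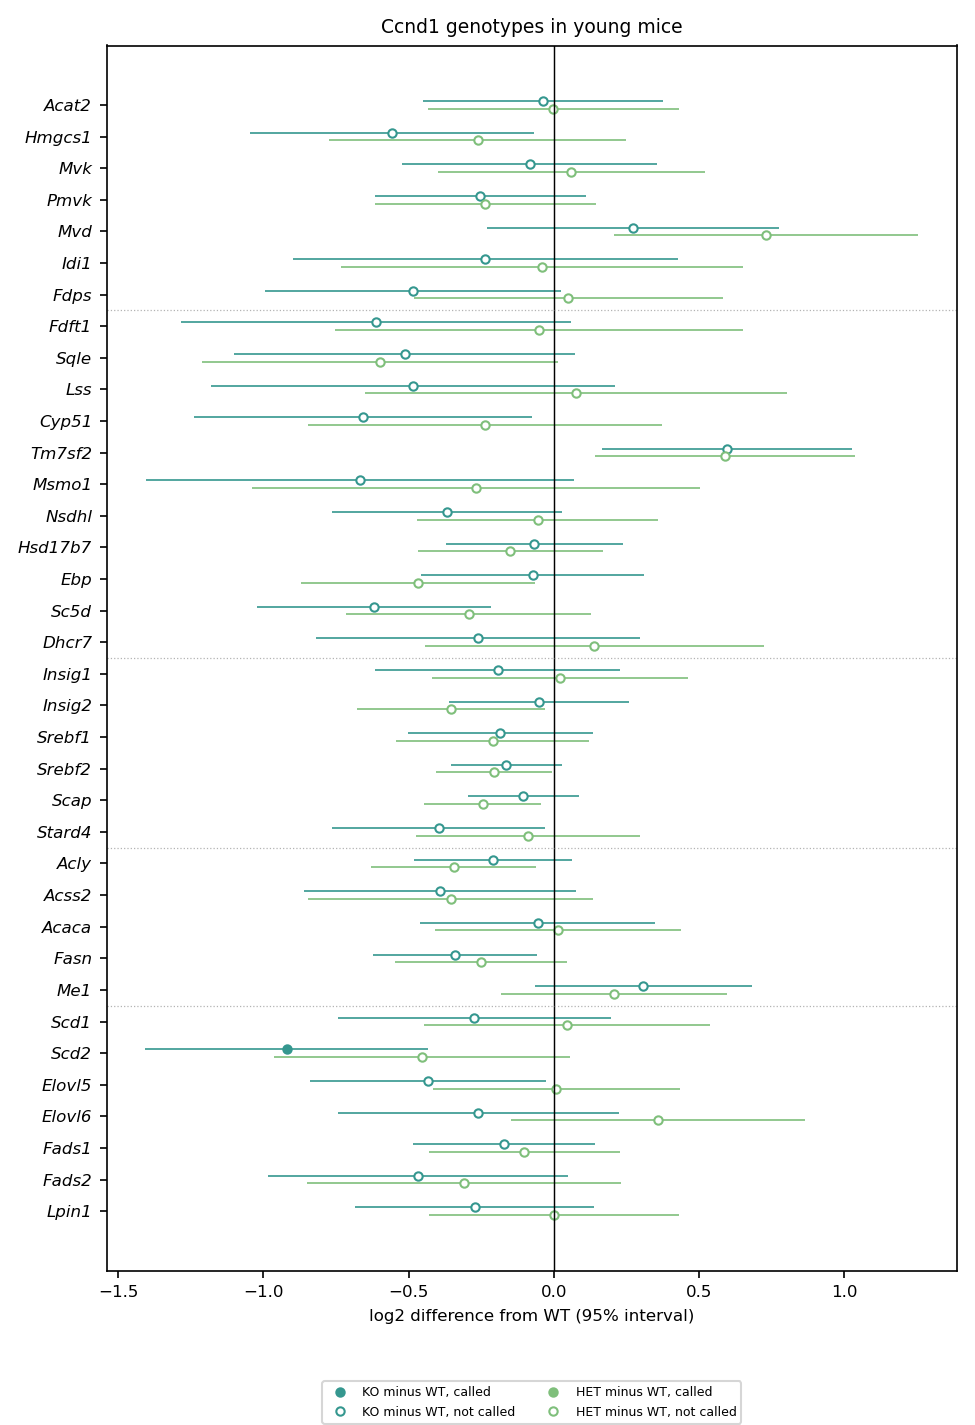
Log2 difference from young WT (x axis), with its 95% interval for each of the 36 genes (rows by role) in young KO and young HET mice. Scd2 in KO, at -0.92, is the 1 filled point. Mvd and Tm7sf2 lie to the right of 0 in both genotypes.

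Genes of 6 surrounding lists were counted beside the same shares of all genes, 17.8% lower and 20.5% higher with age in locked-wheel mice and 17.7% lower and 20.5% higher in free-wheel mice. Of 15 other sterol steps and SREBP regulators, 7 fell and 1 rose with age in locked-wheel mice and 5 fell and 2 rose in free-wheel mice. Erlin2, an endoplasmic reticulum scaffold for degradation of sterol enzymes, was at -0.60 and -0.82, and Aacs, which activates acetoacetate for lipid synthesis, at -0.48 and -0.85. The ubiquitin ligase gene Rnf139 rose by 0.24 and 0.35. Of 14 genes of the isoprenoid branch, which draws on farnesyl diphosphate, 5 rose and 1 fell in locked-wheel and 5 rose and 2 fell in free-wheel mice. Pdss1, which makes the side chain of coenzyme Q, rose by 0.71 and 0.98, while Fntb, a farnesyltransferase subunit, was at -0.37 and -0.71. The other farnesyltransferase subunit gene, Fnta, rose by 0.72 in free-wheel mice, and the prenyl protease gene Rce1 rose by 0.33 and 0.28.

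Of 19 genes of sterol uptake, efflux and LXR signalling found of 21, 3 rose and 5 fell with age in locked-wheel mice and 1 rose and 4 fell in free-wheel mice. The receptor gene Lrp1 was at -0.51 and -0.44, the nuclear receptor gene Rxra at -0.43 and -0.81, and Npc2, a lysosomal cholesterol carrier, rose by 0.20 in locked-wheel mice. Of 20 other lipogenesis genes found of 21, 4 rose and none fell in locked-wheel mice and 4 rose and 2 fell in free-wheel mice, the rises being near the shares of all genes. Elovl4, an elongase for very long chains, rose by 1.34 and 1.23, at a mean of 29.1 RPKM in old and 12.3 RPKM in young locked-wheel mice, the opposite direction to Elovl5 and Elovl6. Thrsp, a lipogenic regulator, and Acacb, the acetyl-CoA carboxylase of mitochondria, were at -0.84 and -0.78 in free-wheel mice. Fatty acid oxidation genes were counted beside them: of 21 found of 24, 11 fell and 1 rose in locked-wheel mice and 7 fell and 3 rose in free-wheel mice. Pdk4, which restrains glucose oxidation, was at -0.69 and -0.99, Ppard, a fatty acid sensor, at -0.53 and -0.63, Hadha at -0.37 and -0.48, and Etfb rose by 0.22 and 0.44.

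Of 25 genes of glycerolipid synthesis, lipid droplets and fatty acid uptake, 6 fell and 3 rose in locked-wheel mice and 7 fell and 4 rose in free-wheel mice. Lpin3, a paralogue of Lpin1, was at -0.72 and -0.90, the droplet coat gene Plin3 at -0.53 and -0.45, and Gpam, the first acyltransferase of glycerolipid synthesis, at -1.20 in locked-wheel mice. Acsl4, which activates long-chain fatty acids, rose by 0.61 and 0.48, and Agpat2, the next acyltransferase, by 0.76 and 0.76. In WT mice these 6 lists had, in the order given, 0, 3, 1, 1, 0 and 2 genes higher and 2, 0, 3, 0, 4 and 4 lower with age, beside 8.03% higher and 7.76% lower of all genes. For the wheel in old mice 4 of the 114 genes of these lists were higher and 1 lower, where 7.39% of all genes were called in either direction. The isoprenoid gene Coq2 was lower (-0.32), and Lipa (0.56), Scarb1 (0.51), Echs1 (0.32) and Fabp5 (0.63) were higher. In young mice limma called none of the 114 genes of these lists for the wheel, where 1.12% of all genes were called. An unadjusted p under 0.05 was found for 12 of the 114 and for 1796 of all 11337 genes.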

How the data were processed

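RNA was reverse transcribed with oligo(dT) primers and amplified by PCR, per the labels' protocols. Trimming with Trim Galore, alignment to mm10 with STAR and counting with featureCounts of Subread are named in the submitters' processing notes. No version or strand setting is stated there, so antisense and overlapping genes are uncertain. The authors deposited RPKM for 11337 genes by 36 libraries, with no zeros, and, as a score, each gene's coefficient of correlation to Ccnd1. The files hold no read counts, so depth per library and the counting error of low values are unknown.

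RPKM values were log2-transformed without a pseudocount and fitted with limma 3.58.1 (R 4.3.3, statmod 1.5.0), with 1 mean per group within each cohort, eBayes with trend and robust settings, and Benjamini-Hochberg adjustment over all genes. Each replicate is an individual mouse. The test was checked on simulated data. Alternatives were a pseudocount of 1, a mean of at least 1 RPKM, RLE scaling, a fit of only the groups compared, a fit of all 36 libraries, a replicate block, each library left out, and a fibre marker covariate chosen after seeing the data. Positions are GENCODE M21 gene bounds on mm10.

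The 36 genes, the lists and the tests were chosen with earlier results of these data known. Values in every library, or the range and median in locked-wheel groups, were given by a rule. It covered Hmgcs1, Srebf1, Srebf2, Insig1 and Insig2. In each comparison it added up to 4 called genes per direction with the lowest p, or the 2 lowest p where none was called. Mvd and Scd2 in the old wheel comparison, Msmo1, Lss and Lpin1 were added after their values were seen. Of the surrounding lists up to 3 called genes per direction were eligible, and some that the rule would name are counted but not reported here by name.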

Additional observations from a re-analysis of the deposited data

Results flagged for a closer look

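Single libraries stood apart from the rest of their group in 14 of 180 combinations of gene and group of 4 to 7 libraries, by Dixon's test at its 95% critical value, which chance alone meets in about 1 in 20. They concern 13 of the 36 genes.

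Old locked-wheel 1 was high for Hmgcs1 (50.1 RPKM, next 34.2) and Idi1 (11.6, next 7.45). In old free-wheel mice library 2 was high for Sqle (16.1, next 12.3), library 4 for Ebp (26.7, next 24.6) and Scap (5.07, next 3.75) and library 5 for Elovl5 (22.5, next 16.0), and library 3 was low for Srebf2 (36.3, next 38.9). Young locked-wheel 4 was high for Insig1 (30.0, next 25.4) and low for Lpin1 (1.31, next 2.17), and young locked-wheel 1 was high for Insig2 (105, next 94.96).

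Young KO 3 was low for Fdft1 (7.54 RPKM, next 13.0). In young HET mice library 4 was low for Insig2 (66.0, next 83.2), library 2 low for Fads1 (6.17, next 9.07) and library 1 high for Acaca (1.82, next 1.59). The age calls of Hmgcs1, Insig1, Insig2 and Lpin1 in locked-wheel mice held in each of the 13 omissions of 1 library, which include the libraries named for them there. Without old free-wheel 3 the age difference of Srebf2 in free-wheel mice was -0.26, and without old free-wheel 5 that of Elovl5 was -1.003, both still called.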

How the results depend on the processing

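No single-gene result that was called in the main fit or in an alternative changed direction between the 2. Changes of sign in results called in neither were not counted. Of single-gene results 5747 kept their side of the threshold, 184 lost and 75 gained a call. The counts that moved by more than 1.5 times, with the main count of the 36 genes or of all genes first in each case, were these. For the wheel in old mice 1 of the 36 became 2 with a mean of at least 1 RPKM, RLE scaling, all 36 libraries or the replicate block. For the wheel in young mice 127 of all genes became 22 with only the groups compared and 14 with the block. For the difference of wheel effects 1 of all genes became 2 with a pseudocount of 1. For KO against WT 1 and 793 became 0 and 379 with only the groups compared and 0 and 1 with the block. For HET against WT 611 became 300 and 179 in the same fits, and 0 of the 36 became 1 with all 36 libraries. For KO against HET 685 became 330 with RLE scaling, 327 with only the groups compared and 262 with the block, and 0 of the 36 became 2 with all 36 libraries. With the fibre covariate, 4331 became 2799 for age in free-wheel mice, 4643 became 3092 for old free-wheel against young locked-wheel mice, and 15 and 1790 became 6 and 703 for age in WT mice. The causes were not tested.

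With 1 library left out, the called members of the 36 and of all genes ranged from 21 to 26 and 3887 to 4356 for age in locked-wheel mice, 14 to 26 and 3289 to 4136 in free-wheel mice, and 3 to 10 and 873 to 1366 in WT mice. They ranged from 17 to 22 and 4195 to 4605 for old free-wheel against young locked-wheel mice, 0 to 2 and 351 to 923 for the wheel in old mice, and 0 to 3 and 5 to 205 in young mice. For the difference of wheel effects they were 0 throughout and 1 to 5. They ranged from 0 to 2 and 98 to 938 for KO against WT, 0 to 1 and 68 to 621 for HET against WT, and 0 to 6 and 265 to 743 for KO against HET.

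Each library is a separate mouse, and the labels do not pair mice by replicate number. Same-numbered libraries correlated above 0.1 in 4 of 5 pairs for the wheel in old mice, at up to 0.30. In each other comparison 0 or 1 pairs did so. Whether libraries of the same number shared a batch is not given in the labels. Sequencing depth per library is unknown, so low genes such as Dhcr7 and Acss2 have an error that cannot be split into counting and biological parts. The removed directions limit age in WT mice and both comparisons with young WT most.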

Other observations

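The authors' deposited table gives a correlation coefficient of each gene with Ccnd1. Among the 36 genes it runs from -0.27 for Acat2 to 0.58 for Mvk, with 0.48 for Acss2, 0.40 for Fads1, 0.39 for Nsdhl and 0.38 for Scd2. For the regulators it is 0.25 for Srebf1, 0.13 for Srebf2 and -0.09 for Insig2. Which libraries the authors used for it is not stated in the labels.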
